A study of Mus musculus and Bos taurus with 2 samples.

Results

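Spliced antisense models are transcripts assembled from long reads that have at least 2 exons and overlap an exon of a known gene on the opposite strand without matching a gene on their own strand in the authors' RefSeq reference. The mouse library held 1601 of them among 42028 transcript models (3.81%, exact Clopper-Pearson 95% interval 3.63% to 4.0%), and 36486 of those models were spliced. They were chosen from the assembled structures themselves, by class code x in the authors' file, 2 or more exon rows and a first exon of any length other than 115 bp. The share, the exon minimum and the overlap with an opposite-strand exon are therefore set by the choice and are given as description. Class x covered 1829 mouse models, of which 134 had 1 exon and 94 were left out for a first exon of 115 bp, the most frequent first exon length of the library with 657 spliced models. Just beside that length, 11 chosen models had a first exon of 114 bp and 20 one of 116 bp, and at the exon minimum 646 had exactly 2 exons.

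The mouse library came from in vitro fertilised embryos of superovulated Slc:ICR oocytes, grown in KSOM to the late 2-cell stage and pooled at 36 h, and the bovine library from 8-cell to 16-cell embryos at 72 h, from Japanese Black or Japanese Black × Holstein F1 oocytes and a Japanese Black bull. Each pool held about 200 in vitro produced embryos. Polyadenylated RNA was turned into cDNA, amplified in 14 PCR cycles and sequenced as long nanopore reads. With 1 library per species, replicate error could not be had, and libraries or groups of models were compared without a test. The intervals below cover counting error only and treat models as independent, although models of 1 locus share exons. Read support is not recorded in the files, and depth is unknown.

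Natural antisense transcripts are RNAs made from the strand opposite to a gene. They can begin at the promoter of a neighbouring gene read in the other direction, at an enhancer or at a repeat, and they are known to act on the gene across from them through base pairing, through transcription itself or not at all. In mouse 2-cell embryos many transcripts are known to begin in long terminal repeats of endogenous retroviruses, and mouse oocytes are known to make small interfering RNAs where sense and antisense transcripts pair. Repeats were not assigned here.

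Among the first exons, 1 sequence recurred most often at the ends that could be read. The sequence of a first exon's last 30 bases could be read for 190 of 1152 distinct first exons of the antisense models, those whose end lies inside an annotated exon of either strand or a promoter window. Of these, 20 ended in nearly the same 30 bases (10.5%, 6.55% to 15.8%), against 11 of 12514 readable first exons of exact matches to the reference (0.0879%, 0.0439% to 0.157%). The comparison sequence was the end of a first exon at Tmem72 that is itself among the 20. A like end was one that differed from this sequence at no more than 6 bases. Both the sequence and the limit were chosen after the values were seen. Readable ends made up 16.5% of the first exons of antisense models and 95.3% of those of exact matches. For spliced models between genes the share was 6.76%, so the readable sets are unlike. The 20 first exons lay on 13 chromosomes and in 19 loci and belonged to 44 models. Among first exons of spliced models between genes, 28 of 168 readable ends were alike (16.7%, 11.4% to 23.2%). Among the 115-bp first exons of all spliced mouse models, antisense or not, the count was 16 of 89 (18.0%, 10.6% to 27.5%). The same end therefore occurred outside antisense models too.

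These ends are shown because they recur from chromosome to chromosome. Each is the last 30 bases of a first exon, 5′ to 3′ on the strand of the model, on mm10 (the same assembly as GRCm38) from the annotated GENCODE transcripts. Capitals mark bases that differ from the long first exon at Tmem72, which is given first.
Tmem72, first exon of 6039 bp, chr6:116691465-116691494, plus strand: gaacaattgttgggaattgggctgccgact
Tmem72, first exon of 116 bp, chr6:116685542-116685571, plus strand: gaacaattgttgggaattgggctgcTgact
Xrn1, first exon of 421 bp, chr9:96024678-96024707, minus strand: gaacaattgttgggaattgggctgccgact
Prkcq, first exon of 773 bp, chr2:11261507-11261536, minus strand: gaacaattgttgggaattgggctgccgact
Rala, first exon of 6318 bp, chr13:17938375-17938404, plus strand: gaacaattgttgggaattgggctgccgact
Hmcn1, first exon of 109 bp, chr1:150625748-150625777, plus strand: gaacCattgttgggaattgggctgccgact
Ppil4, first exon of 116 bp, chr10:7796022-7796051, minus strand: gaaAaattgttgggaattgggctgccgact
Jph1, first exon of 6019 bp, chr1:16898188-16898217, plus strand: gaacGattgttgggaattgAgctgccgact
Adamts2, first exon of 103 bp, chr11:50805619-50805648, minus strand: gaacCattgttgggaattggActAcAgact
Dot1l, first exon of 1358 bp, chr10:80768892-80768921, minus strand: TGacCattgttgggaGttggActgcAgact

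The gene before each sequence is the opposite-strand gene named in the authors' file. The ends at Xrn1, Prkcq and Rala equalled the Tmem72 end at every base, and 9 others differed from it at 1 base. The first exons that carry the sequence ranged from 103 bp to 6318 bp, with 9 between 100 and 130 bp and 3 between 5900 and 6099 bp. Of the 20 ends, 13 were read from an annotated exon on the model's own strand and 7 from an exon of the opposite-strand gene. Leaving out first exons read from an opposite-strand exon, 13 of 80 readable ends were alike (16.2%, 8.95% to 26.2%).

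**Figure D1:**
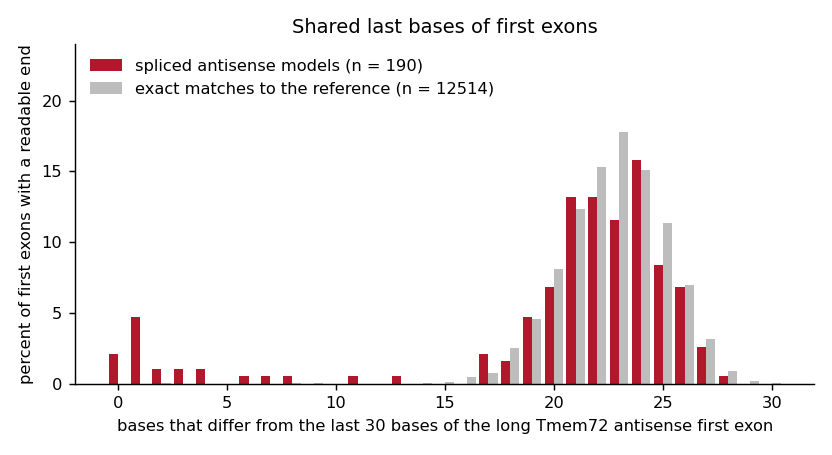
Number of bases (horizontal axis) at which the last 30 bases of a first exon differ from the end of the long Tmem72 antisense first exon, as percent of the first exons with a readable end (vertical axis); red bars are the 190 first exons of spliced antisense models, grey bars the 12514 of exact matches. The red bars at 0 to 6 differences hold 20 first exons against 11 of exact matches, and most other ends of both groups differ at 17 to 28 bases.

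Tmem72, which encodes a transmembrane protein, showed how the short and the long first exon relate. All of its 6039-bp antisense first exon (chr6:116685456-116691494, plus strand) lies in the annotated 3′ UTR of Tmem72, so its whole sequence could be read. The 116-bp first exon of 3 other antisense models begins at the same base. The first 116 bases of the long exon and its last 116 bases (chr6:116691379-116691494) were identical at 115 positions. The 1 difference was T112C, with positions counted from 1 at the 5′ end of each copy and the base of the first copy written first. The intron starts with GTAAGT after both the short and the long first exon. The exon thus carried nearly the same stretch at its start and at its end, and models with a splice donor after either copy were assembled.

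First exons of about 6 kb were found at many other loci. Between 5900 and 6099 bp lay 29 of the 1152 distinct first exons of antisense models (2.52%, 1.69% to 3.60%), in 52 models on 16 chromosomes, against 1 of 13138 first exons of exact matches (0.00761%, 0.000193% to 0.0424%). Spliced models between genes had 49 of 2485 in this range (1.97%, 1.46% to 2.60%), and the whole mouse library had 126 in 240 models. In the bovine library 0 of 970 first exons of spliced antisense models were in the range, which allows a share of up to 0.309% at a limit of 3 counts and 0.380% by the exact interval. The range was chosen after the lengths were seen.

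A length of 6019 bp to the base occurred at 7 first exons with 17 models: at the junction protein gene Jph1 with 4 models, at Stk32c with 4, at Klhl6 with 3, at Jcad and Ankrd26 with 2 each, and at Mir6352 and the pseudogene Gm14895 with 1 each. Another 4 first exons measured 6059 bp, at Gm25547, Gm33912, Gm30192 and Cldn34c3. Among all spliced mouse models, 14 first exons measured 6019 bp, 1 of them in an exact match, and 6 measured 6059 bp. A length of 6058 bp occurred at 17 first exons of the library, 2 of them in antisense models. These exact lengths thus also occurred outside antisense models. Annotated exons covered at least 30 bp of 15 other long first exons of the library, 4 of them in antisense models, and every one of these stretches aligned to the Tmem72 exon on the same strand at 93.9% to 100% identity. At the poliovirus receptor homologue gene Pvr, the first 2409 aligned bases agreed at 98.9%, from position 1 of the Pvr exon against position 2 of the Tmem72 exon. In 13 of the 15 the aligned positions in the 2 exons lay within 130 bases of each other. At Skint6 the stretch of 92 bp from position 17 of the first exon aligned instead to position 5948 of the Tmem72 exon, at 98.9% identity. That position lies in the last 116 bases of the Tmem72 exon, which nearly repeat its first 116, so the alignment does not show to which end the stretch belongs.

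These long first exons rarely supplied the antisense overlap. Of the 18 models with such a first exon and a partner gene in GENCODE, 1 overlapped the partner through the first exon, the Tmem72 model. The 4 longest antisense models began with a 6019-bp first exon: those of the kinase gene Stk32c had 12120, 11710 and 11658 bp of spliced sequence and that of the ubiquitin ligase adaptor gene Klhl6 had 10541 bp. A model at Fam171b followed with 10393 bp and a first exon of 4444 bp. Other genes faced by models of this kind included Ryr3, a calcium release channel gene, Kdm6a, a histone demethylase gene on chromosome X, the catenin gene Ctnnd2 and the olfactory receptor gene Olfr1276. Their first exons measured 6050, 6058, 6058 and 6082 bp. The Kdm6a and Olfr1276 models had 6 exons each, and the Cldn34c3 model had 7.

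**Figure D2:**
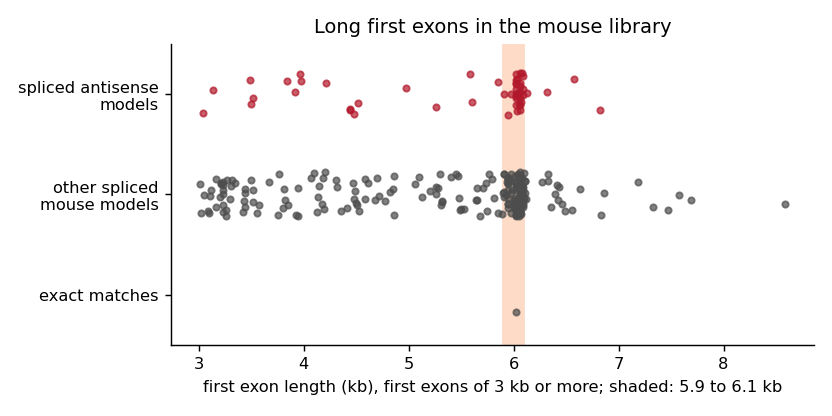
Length in kb (horizontal axis) of every distinct first exon of 3 kb or more in the mouse library, for spliced antisense models, other spliced mouse models and exact matches; points are spread vertically for visibility. Points crowd the shaded range of 5.9 to 6.1 kb, with 29 first exons of antisense models and 1 of exact matches.

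A second ending was shared by 5 of the 190 readable first exons, on 5 chromosomes. This ending was not counted in other models, so nothing particular to antisense models is read from it. It is shown because first exons of quite different lengths stop at it. Capitals mark bases that differ from the Efcab12 end.
Gm19070, first exon of 2245 bp, chr1:5309952-5309981, plus strand: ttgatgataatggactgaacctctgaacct
Slc25a33, first exon of 2746 bp, chr4:149748581-149748610, plus strand: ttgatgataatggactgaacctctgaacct
Pgam5, first exon of 439 bp, chr5:110262245-110262274, plus strand: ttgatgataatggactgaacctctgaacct
Efcab12, first exon of 93 bp, chr6:115836186-115836215, plus strand: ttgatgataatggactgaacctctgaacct
Hoga1, first exon of 119 bp, chr19:42070513-42070542, minus strand: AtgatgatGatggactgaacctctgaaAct
The ends at Gm19070, Slc25a33, Pgam5 and Efcab12 were identical over all 30 bases. Linking ends that differ at up to 4 bases gave 2 groups of first exons among the 190, the larger of 22 and this one of 5.

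Short first exons also gathered at a few lengths. The removal of 115-bp first exons takes the library's most frequent length out of this range, so the order of lengths and the share below depend on that choice. The most frequent lengths among antisense models were 121 bp with 26 distinct first exons and 109 bp with 24, and 252 of 1152 were 100 to 130 bp long (21.9%, 19.5% to 24.4%). With 115 bp left out of the other sets as well, the range held 554 of 2355 first exons of spliced models between genes (23.5%, 21.8% to 25.3%), a share close to that of antisense models. It held 1672 of 13081 in exact matches (12.8%, 12.2% to 13.4%) and 77 of 969 in bovine spliced antisense models (7.95%, 6.32% to 9.83%). Of the 25 in this range with a readable end, 9 had the sequence shared with Tmem72 (36%, 18.0% to 57.5%).

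A few models began in the promoter window of an opposite-strand gene. Promoter windows of 300 bases, 250 before and 50 after the start of each RefSeq gene, held the start of 12 of the 1601 antisense models on the opposite strand. The same count was not made for other models, so nothing is read from its size. The windows belonged to Enah, B3gnt2, Gm51915, Arf4, Gabpb1, Rbl1, Cdk8, Gm1070, Arhgef1, Zfp143, Kat8 and Tyk2. At Arf4, Rbl1, Gm1070 and Arhgef1 the authors' file names a neighbour as the gene overlapped, namely Dennd6a, Mroh8, Krcc1 and Cd79a. In 5 windows the whole first exon was inside. The windows of Gabpb1, Tyk2 and Arf4 are printed to show how the antisense exon sits before the gene. Each is the RefSeq window on GRCm38.p6, on the strand of the gene, with the bases of the antisense first exon in capitals.
Gabpb1, chr2:126675543-126675842, minus strand: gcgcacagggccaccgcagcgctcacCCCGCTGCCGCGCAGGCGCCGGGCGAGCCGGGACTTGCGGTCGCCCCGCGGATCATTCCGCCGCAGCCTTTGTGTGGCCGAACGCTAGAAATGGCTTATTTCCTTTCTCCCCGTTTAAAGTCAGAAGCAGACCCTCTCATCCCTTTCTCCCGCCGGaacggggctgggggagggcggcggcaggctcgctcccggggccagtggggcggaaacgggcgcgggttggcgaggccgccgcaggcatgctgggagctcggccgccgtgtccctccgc
Tyk2, chr9:21131226-21131525, minus strand: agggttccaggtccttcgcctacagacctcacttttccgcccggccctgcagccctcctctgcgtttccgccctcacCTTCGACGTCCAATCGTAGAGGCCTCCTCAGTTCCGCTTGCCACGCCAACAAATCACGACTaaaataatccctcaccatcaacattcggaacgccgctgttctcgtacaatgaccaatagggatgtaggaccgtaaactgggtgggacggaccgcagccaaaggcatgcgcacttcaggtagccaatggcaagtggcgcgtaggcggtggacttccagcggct
Arf4, chr14:26637884-26638183, plus strand: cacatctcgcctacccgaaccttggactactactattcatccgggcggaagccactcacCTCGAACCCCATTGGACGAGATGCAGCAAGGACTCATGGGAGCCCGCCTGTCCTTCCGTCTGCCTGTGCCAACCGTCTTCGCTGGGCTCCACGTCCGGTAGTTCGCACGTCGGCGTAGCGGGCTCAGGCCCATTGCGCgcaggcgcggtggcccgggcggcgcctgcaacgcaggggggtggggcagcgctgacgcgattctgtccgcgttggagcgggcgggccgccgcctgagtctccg

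The antisense start lay 69 bp upstream of the start of Gabpb1, which encodes a subunit of the GA-binding transcription factor. At Tyk2, a Janus kinase gene, it lay 113 bp upstream. At Arf4, which encodes a small GTPase of membrane traffic, it lay 54 bp upstream, and the model ran away from Arf4 into exons of the neighbouring gene Dennd6a. The first intron of the antisense model, read on its own strand from the bases next to the capitals, began with GTGAGC at Gabpb1. It began with GTGAGG at Tyk2. At Arf4 it began with GTGAGT, and at Zfp143 with CGAACC, which lacks the usual GT. All 3 promoters also had sense models, 13 for Gabpb1, 4 for Tyk2 and 2 for Arf4.

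The splice sites of the antisense models mostly carried the usual letters on the assigned strand. Of their 4712 donor and acceptor sites, those inside annotated sequence were read. GT stood at 280 of 300 donors (93.3%, 89.9% to 95.9%), against 17384 of 17657 in exact matches (98.5%, 98.3% to 98.6%) and 8567 of 9163 in models that share a junction with a gene but differ from its transcripts (93.5%, 93.0% to 94.0%). AG stood at 435 of 443 acceptors (98.2%, 96.5% to 99.2%), against 15161 of 15217 in exact matches (99.6%, 99.5% to 99.7%) and 8041 of 8370 in those other models (96.1%, 95.6% to 96.5%). CT, which a GT-AG intron assigned to the wrong strand would show, stood at 2 donors. Of the 820 models with a GENCODE partner, 0 had an intron of the partner and 0 shared 1 intron end with it. An opposite-strand intron match can receive another class code, so the 0 identical introns may be set by the choice of class x. Both counts are therefore given as description.

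The models were short and had few exons. They had a median of 3 exons (range 2 to 12), 1009 bp of spliced sequence (200 to 12120) and a genomic span of 11.9 kb. Exact matches of 2 or more exons had medians of 8 exons and 2254 bp, and spliced models between genes had 2 exons and 875 bp. Models with 2, 3 and 4 exons numbered 646, 535 and 266, and 17 had 7 or more. The most exons, 12, were in a model at the noncoding gene Gm33077, followed by 11 each in 2 models at C130026I21Rik and 1 at the pseudogene Gm11951, and by 10 in another at C130026I21Rik.

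**Figure D3:**
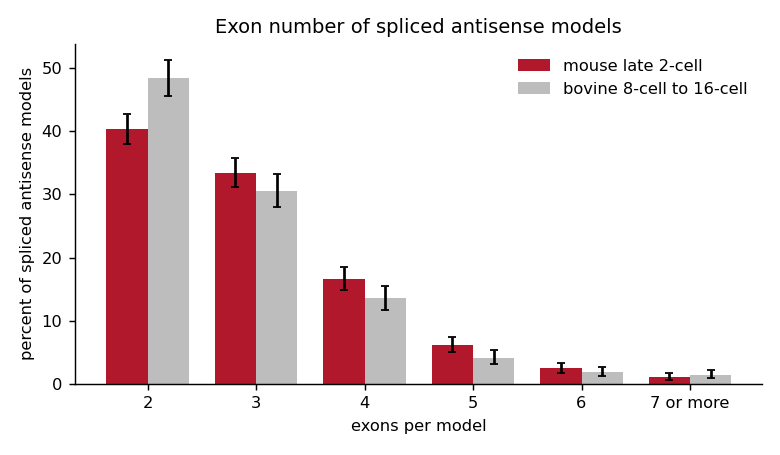
Percent of spliced antisense models (vertical axis) by number of exons (horizontal axis) in the mouse late 2-cell library (red, 1601 models) and the bovine 8-cell to 16-cell library (grey, 1255 models); error bars are exact 95% intervals. Models of 2 exons made up 40.3% in mouse and 48.4% in bovine.

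Grouping models of the same strand whose exons overlap gave 1055 loci. Of these, 752 held 1 model, 33 held 5 or more and the fullest held 9. The models had 1114 start groups in the authors' file, and they lay on the plus strand 773 times and on the minus strand 828 times. Chromosome 1 carried most, with 138 of its 2147 spliced models (6.43%), then chromosome 11 with 114 of 2904 (3.93%) and chromosome 7 with 110 of 2634 (4.18%).

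The partner gene was taken as the opposite-strand GENCODE gene with most overlapping exonic bases. Such a gene existed for 820 of the 1601 models (51.2%, 48.7% to 53.7%), and these partners were 575 of 55450 GENCODE genes (1.04%), 445 of them coding. The authors' file named 1031 opposite-strand genes for all 1601, from a RefSeq annotation. Of the 781 models without a GENCODE partner, 394 faced a predicted RefSeq transcript and 256 a curated one. Among named genes with no GENCODE partner exon, Galntl5 had most models with 7, followed by the magnesium transport gene Cnnm2 and Gm32546, Gm40200 and Gm6987 with 6 each. Wdr45b and Rpl19-ps4 had 5 each. By the RefSeq table, 1075 of the 1601 models faced a coding gene (67.1%, 64.8% to 69.4%), 287 a long noncoding RNA gene and 200 a pseudogene. Of 9940 processed pseudogenes in GENCODE, 56 were a partner (0.563%).

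Most antisense models with a partner lay inside the gene or ran into its 3′ end. Of 820, 331 lay wholly inside the gene (40.4%, 37.0% to 43.8%) and 307 converged on it so that the 3′ ends overlapped (37.4%, 34.1% to 40.9%). In 110 the gene lay inside the model (13.4%, 11.2% to 15.9%), and in 72 the 5′ ends overlapped (8.78%, 6.93% to 10.9%). With a coding partner the order of these 2 turned: the gene lay inside the model in 21 of 651 (3.23%) and the 5′ ends overlapped in 62 (9.52%). With the RefSeq span of the gene named by the authors, over all 1601, the 4 shares were 32.1%, 32.2%, 19.7% and 16.1%. Starts stood far from the partner's start, at a median of 11.8 kb, and 85 of 820 lay within 1 kb of one (10.4%, 8.36% to 12.7%). Models that start beside a gene and run away from it without exonic overlap are outside the choice. The divergent share and the start distances therefore depend on the choice and are given as description. The model's own end lay inside the partner's span in 638 of 820 (77.8%, 74.8% to 80.6%).

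**Figure D4:**
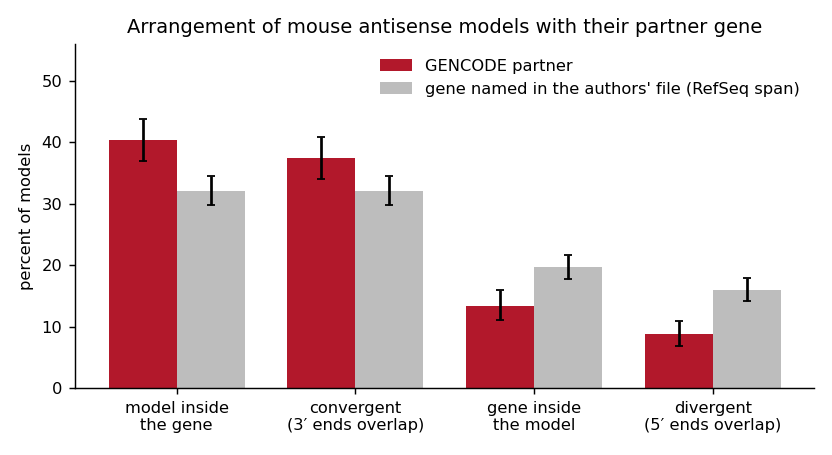
Percent of mouse spliced antisense models (vertical axis) in each arrangement with the opposite-strand gene, for the 820 with a GENCODE partner (red) and for all 1601 with the RefSeq span of the gene named in the authors' file (grey); error bars are exact 95% intervals. The 2 leading arrangements are the model inside the gene and the convergent overlap, and the divergent one is the least frequent in both. Divergent models without exonic overlap are outside the choice.

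The overlap usually touched coding sequence. Of 651 models with a coding partner, 521 overlapped coding bases (80.0%, 76.7% to 83.0%), 181 the 3′ UTR (27.8%) and 88 the 5′ UTR (13.5%), and in 280 the overlap was coding sequence alone. By bases, 43.9% of the overlap at coding partners was coding, 33.7% 3′ UTR, 18.1% noncoding exon and 4.32% 5′ UTR. A base that is coding in any transcript of the gene counted as coding. The overlap was a median of 216 bp (4 to 6039), or 19.8% of the model's spliced length. It was made by the last exon alone in 382 of 820 (46.6%, 43.1% to 50.1%), by internal exons alone in 132 and by the first exon alone in 123. The largest overlap was that of the Tmem72 model with the 6039-bp first exon, followed by 3 other Tmem72 models with 5933, 3392 and 3346 bp, all in the 3′ UTR, and by a Psmd9 model with 2661 bp. Psmd9 encodes a chaperone of the proteasome.

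The partners with most models were Xrn1 and Osbpl6, with 8 each. Xrn1 encodes the 5′-3′ exoribonuclease of the cytoplasm, and its antisense models fell into 3 loci. One of these was at the 3′ end, with a 5976-bp first exon and 297 bp of 3′ UTR overlapped. Inside the gene, 5 models overlapped 356 to 1141 bp, and 2 more overlapped the same 79 coding bases. Xrn1 had 3 sense models. The 8 models at Osbpl6, which encodes an oxysterol-binding protein relative, all began with the same 108-bp first exon beyond the gene's 3′ end. They differed in how far they ran into the gene, and overlapped 236 to 818 bp, of which 79 to 145 bp were coding.

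Prrc2c, which encodes a proline-rich coiled-coil protein, had 6 convergent models that shared 1 first exon of 154 bp. They overlapped 1186 to 2342 bp, mostly 3′ UTR, and Prrc2c had 15 sense models. One of the 6 overlapped a sense model by 1872 bp. Ankrd17, an ankyrin repeat gene, had 7 models with 1 shared first exon of 233 bp, and 5 of these touched only 4 coding bases of the gene. At Slc6a2, the noradrenaline transporter gene, 7 models overlapped the same 112 coding bases, and no sense model was assembled. Prkcq, which encodes protein kinase C theta, had 6 models that all started with the 773-bp first exon shown above. Each overlapped 898 to 1008 bp of Prkcq, 773 of them an annotated noncoding exon of that gene.

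Partners with 5 models each came next. At Zfp281, a zinc finger gene active in pluripotent cells, all 5 covered the same 1741 bp, of which 1635 were coding, and no sense model was assembled. Zfx, the X-linked zinc finger gene, was overlapped by 513 coding bases and had 7 sense models. The 5 models at Gulo, the gene of the last enzyme of vitamin C synthesis in mouse, overlapped 86 to 326 coding bases, and Gulo had 3 sense models. At Csk, the gene of the kinase that restrains Src kinases, the overlap was 374 bp of 3′ UTR in each, and the authors' file names the neighbour Lman1l for them. The noncoding gene 1700012J15Rik was overlapped by 420 bp and the processed pseudogene Gm17895 by 175 bp. Tmem72 also had 5 models.

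Another 11 partners had 3 or 4 models each, of which Swt1 and 4930548H24Rik were taken from 28 partners with 3 models for their larger exonic overlap. The 11 included Keap1, which targets the stress regulator Nrf2 for degradation, with 4 models over 66 to 510 coding bases, and Grin2d, an NMDA receptor subunit gene, with 4 models over 528 to 756 coding bases. Smarcal1, the gene of an annealing helicase that acts at stalled replication forks, was overlapped by 71 to 837 bp. The kinase gene Nek5 was overlapped by 87 to 117 bp and the microtubule adaptor gene Hook2 by 178 to 199 bp. Wfdc18, Swt1 and 4930548H24Rik were overlapped by up to 146, 1208 and 1359 bp. The others were the noncoding gene Gm11290, the pseudogene Gm11951 and Gm49588, where the overlaps were 1026, 50 and 97 bp in all 4 models. The authors' file names the tRNA gene n-TIaat7 in place of Gm11290 and the thioredoxin reductase gene Txnrd2 in place of Gm49588.

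**Figure D5:**
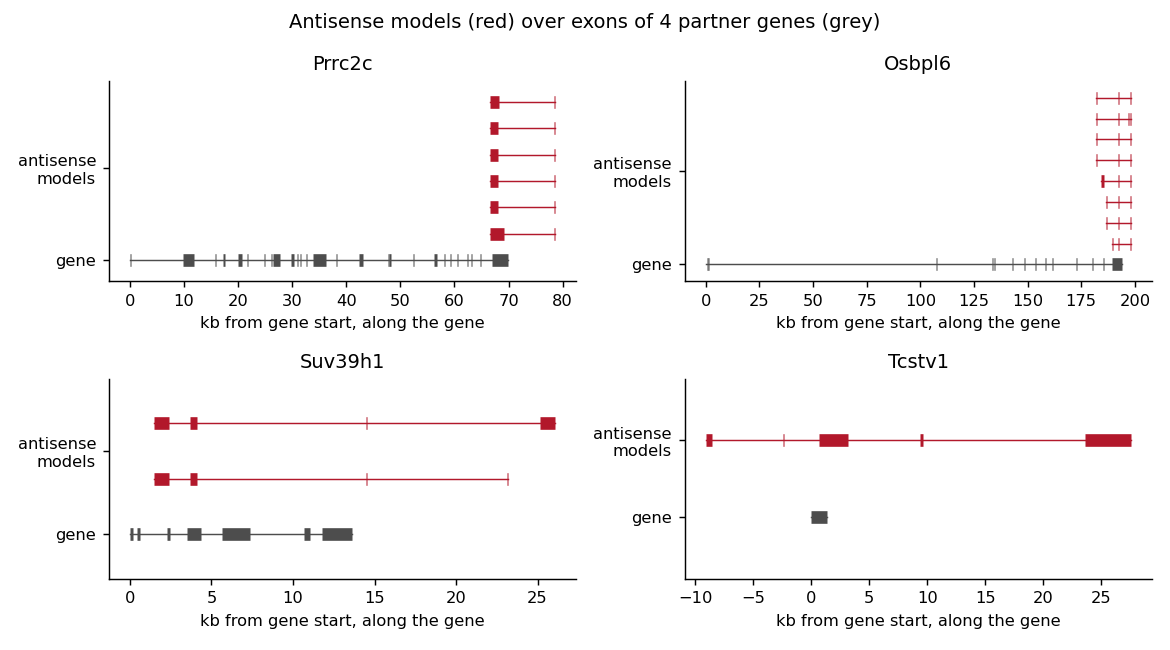
Exons (boxes) and introns (lines) of the antisense models (red) above the merged annotated exons of 4 partner genes (grey), in kb from the gene start along the gene (horizontal axis). The Prrc2c and Osbpl6 models enter from beyond the 3′ end and stop within the 3′ part of the gene, 1 of the 2 Suv39h1 models has a shorter first exon than the other, and the Tcstv1 gene lies inside its antisense model.

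Partners were sought in gene lists for this stage. Of 21951 coding genes in GENCODE, 445 were a partner (2.03%). From 30 genes of the 2-cell burst found there, 1 was a partner, Tcstv1, which lies within a 5-exon antisense model of 7203 bp that overlaps it by 719 bp, 513 of them coding. The authors' file names Tcstv1 for 5 antisense models, of which 1 overlaps its GENCODE exons. Tcstv1 belongs to a cluster of near-identical copies, so the copy is uncertain. Among 39 genes that silence transposable elements or act on DNA methylation, 2 were partners: Suv39h1, a histone H3 lysine methyltransferase gene, and Cbx3, which encodes the HP1 gamma protein. None of 34 maternal oocyte genes, 47 splicing genes, 101 histone genes, 27 genes with a described long antisense RNA or 5 genes described as sources of small interfering RNA in oocytes was a partner. The 2-cell and silencing lists thus had 3.33% and 5.13% partners beside the 2.03% of all coding genes, from 1 and 2 genes, and nothing about the lists is read from counts this small.

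Suv39h1 had 2 antisense models with 551 bp over its coding sequence. They converged on the gene from beyond its 3′ end, with first exons of 873 and 94 bp, and both had the whole intron chain of Gm14820, an annotated antisense gene on chromosome X. Suv39h1 itself had 5 sense models. Cbx3 had 1 antisense model of 383 bp over 107 coding bases, and 4 sense models. Ehmt1 and Usp17lb were named by the authors' file but had no GENCODE partner exon.

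Of 365 zinc finger genes with a Zfp number, 8 were partners (2.19%), a share near the 2.03% of all coding genes. Zfp143 was overlapped at both ends, by a divergent model over 387 bp of 5′ UTR that starts 36 bp downstream of an annotated Zfp143 start and by a convergent one over 351 bp. Zfp7 was overlapped by 1779 bp, 1109 of them coding, and Zfp507 by 767 bp. The overlaps at Zfp13, Zfp799, Zfp27 and Zfp956 were 323, up to 186, 154 and 37 bp, and the remaining gene was Zfp281. For Zfp799 the authors' file names Zfp811. That file also names Zfp236, Zfp251, Zfp282, Zfp287, Zfp384, Zfp449, Zfp451, Zfp709 and Zfp712, none of which was a GENCODE partner. The 2.19% therefore counts GENCODE partners alone.

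All 10 markers of the late 2-cell embryo had a sense model, and 3 of 10 markers of cumulus and granulosa cells, 4 of 8 of sperm and 4 of 7 of blood and immune cells had one. Among all coding genes 54.7% had a sense model, so the sperm and blood counts are near that share. Of these markers, Tcstv1 and the B cell receptor gene Cd79a were partners of antisense models. The Cd79a model overlapped 578 bp of its 3′ UTR and began in the promoter window of its neighbour Arhgef1. Whether cells other than the embryo gave any antisense model was not tested.

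Few of the models were annotated in GENCODE on their own strand. Models that match a RefSeq gene on their own strand are outside the choice, so the shares below depend on it and are given as description. A same-strand GENCODE exon was touched by 249 of 1601 (15.6%, 13.8% to 17.4%), 109 shared an intron with it and 31 had the whole intron chain of a transcript (1.94%, 1.32% to 2.74%). The gene touched was of the antisense type in 112 of the 249 and a long intergenic noncoding RNA in 66. Besides Gm14820 at Suv39h1, the genes with most models sharing an intron were C78334 opposite Xrn1, 1600010M07Rik opposite Wee1, Gm13962 opposite Olfr1276, Gm16754 opposite Keap1 and Gm16026 opposite C130026I21Rik, with 4 each. At Zfx, all 5 models touched exons of the antisense gene Gm14798 but shared none of its introns. The same held at Jph1 for 4 models on Gm28376 and at Grin2d for 4 on Gm45441. Wee1 encodes the kinase that holds cells before mitosis.

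Partner genes were often transcribed in the sense direction too. A sense model was assembled for 302 of 445 coding partners (67.9%, 63.3% to 72.2%), against 12001 of all 21951 coding genes (54.7%, 54.0% to 55.3%). Coding partners were longer, with a median of 33.9 kb against 17.4 kb for all coding genes, and the part of gene length in the difference was not tested. Of the 1601 antisense models, 394 overlapped exons of an opposite-strand model (24.6%, 22.5% to 26.8%), by a median of 191.5 bp, and 23 by 1000 bp or more. The largest such overlap was 2226 bp at Rundc1, followed by 1981 bp at Rfx7, a transcription factor gene, 1888 bp at the cell adhesion gene Clmp, the 1872 bp at Prrc2c and 1787 bp at Rerg. At Rhbdd2, a rhomboid family gene, the antisense model that begins with a 108-bp first exon of the shared end overlapped an exact match of the gene by 1224 bp. At Zfp7 the overlap with an exact match was 963 bp. These are lengths over which RNA of both strands was assembled in the same pool of embryos, and the data do not show whether both were present in the same cell.

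In the bovine library, 1255 of 39130 spliced models were of the same kind (3.21%, 3.03% to 3.39%), beside 1601 of 36486 in mouse (4.39%, 4.18% to 4.60%). The mouse count leaves out the 115-bp first exons and the bovine one leaves out none. Mouse models had a median of 3 exons and a first exon of 158 bp, beside 3 exons and 243 bp for the bovine models, whose spliced length had a median of 1140 bp. Species, stage and annotation differ together and cannot be told apart. The partner symbols that occurred in both numbered 29, which is 2.81% of the 1031 in mouse and 3.40% of the 854 in bovine. Of 8909 symbols named by any model in both files, 424 were a mouse partner (4.76%, 4.33% to 5.22%), and among the 410 that were a bovine partner 29 were a mouse partner (7.07%).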

How the data were processed

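One mouse and 1 bovine nanopore cDNA library were described by transcript models. The authors deposited StringTie models (named in the files' source column, per the file headers) with exon positions, strand, class code and closest reference transcript, and no counts, coverage or score; builds were mm10 and bosTau9, per the submitters' processing notes. The aligner and all settings: not given in the sources used here. A filter or a merging step would lower the number of rare models. Truncated cDNA would move starts downstream.

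Models were compared with GENCODE M21 (the same mouse build), where 68.4% of exact multi-exon matches had an identical intron chain, and with the RefSeq table and promoter windows (GRCm38.p6), in which the named gene of all 1601 models was matched by accession or symbol. Sequences came from annotated transcripts, since no genome sequence was used. Overlaps of at least 1 bp counted. The geometry was tested on simulated models. Shares have exact Clopper-Pearson 95% intervals (scipy 1.17.1); alignments used Biopython 1.88. Named genes were the 25 partners with most models (ties by larger overlap), the 5 models with most exons, longest sequence or largest overlap, and list members; 1 gene so selected is not reported here. Members and lists were chosen with earlier results of these data known.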

Additional observations from a re-analysis of the deposited data

How the results depend on the processing

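No paired analysis was possible because each species has 1 library and the results come from no test. Of 58 recomputed values, 34 stayed within the stated interval or, for counts, within 1.5 times, and 24 moved. A change of sign was seen in 0, but only the mouse-minus-bovine difference could change sign. Of the 58, 9 used choices made after the data were seen. With models of 3 or more exons, 955 models and 614 loci remained, median spliced length was 1109 bp, 41.5% were convergent, 5.64% divergent and 17.8% on a same-strand exon. The genes named by the authors numbered 1031, and their RefSeq spans gave 32.1% inside, 32.2% convergent, 19.7% around the gene and 16.1% divergent. The closest reference transcript alone, found in GENCODE for 542 models, gave 31.0% inside, 36.5% convergent, 12.2% around the gene and 20.3% divergent. Convergent overlap led there and, with 41.5% against 37.4% inside, also with 3 or more exons. The order of the arrangements thus depended on the span and the models used. Starts lay within 500 bp of the partner's start in 7.07% and within 2 kb in 15.7%. Counting same-strand gene spans gave 25.9%, and exact matches alone left 39.0% of all 575 partners with a sense model, against 56.9% with all sense models. The share in mouse exceeded that in bovine by 1.18 percentage points, and by 2.95 when exact matches were left out of the denominator. The shared end reached 16.2% without opposite-strand reads. The cause of these moves was not tested, beyond the smaller sets that some choices leave. Depth is unknown, so a model that is missing may be unsampled.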

Other observations

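Pseudogenes of the RefSeq table, 120 in all, were faced by 200 spliced antisense models. Of these pseudogenes, 18 had -ps in the symbol, and the part before it was taken as the parent symbol. For 11 of the 18 the parent symbol had a sense model in the same library, beside a share of 54.7% among all coding genes. Rpl31 was the parent symbol of more than 1 pseudogene, and Vmn2r names no single gene. The measures are thus unlike, and nothing is read from the comparison. Ribosomal protein pseudogenes made up 8 of the 18. Rpl19-ps4 had 5 antisense models and its parent Rpl19 had 2 sense models, and Rpl31-ps7 had 2 antisense models beside 3 sense models of Rpl31. At Rpl31-ps17, 1 antisense model of 2 exons and 1587 bp (chr12:54701281-54706652) overlapped a sense model of the pseudogene itself by 1574 bp. That sense model had 2 exons and 1583 bp (chr12:54701281-54706653), so the 2 models nearly mirrored each other. Whether 1 transcript was assigned to both strands was not tested.

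Small RNA genes were overlapped as well. Models facing a small nuclear RNA gene numbered 17, at 12 genes, and one of them faced Rnu11, which encodes an RNA of the minor spliceosome, with a 112-bp first exon that ended in the sequence shared with Tmem72. Genes of 3 tRNAs faced 6 models, 4 of them at n-TIaat7, and 4 miRNA genes faced 1 model each, Mir3058, Mir6352, Mir6361 and Mir7659. The 4 models at n-TIaat7 are those that overlap Gm11290 in GENCODE.

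Genes with spliced antisense models in both libraries, by symbol, included HMCN1 with 3 models in mouse and 3 in bovine, NLRP12 with 2 and 4, and PXT1, RBL1 and SCFD1 with 2 and 3 each. WDR45B had 5 in mouse and 1 in bovine. Shared symbols were read from the names alone, and positions were not compared between the species.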
